A study of Mus musculus with 14 samples.

Results

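The genes of the nuclear RNA polymerases and of their initiation factors were followed in mouse hematopoietic progenitor cells (HPCs) with and without N-Myc. Members were the genes whose platform symbol begins with Polr1, Polr2 or Polr3, together with the RNA polymerase I (Pol I) factors Rrn3, Ubtf and Taf1a to Taf1d and the RNA polymerase III (Pol III) factors Gtf3a, Gtf3c1 to Gtf3c6, Brf1, Brf2 and Bdp1. Of the 44 such genes that RefSeq lists, 40 had a probe set, each a single set, among 22206 probe sets tested and 19505 genes with a symbol. The remaining genes, among them Polr2a, the largest subunit of RNA polymerase II (Pol II), were not analysed here. Of the 40 genes, 3 encode subunits particular to Pol I, 2 subunits that Pol I and Pol III share, 5 Pol I factors, 5 subunits common to all 3 enzymes, 6 subunits particular to Pol II, 9 subunits particular to Pol III and 10 Pol III factors.

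The cells were lineage-negative bone marrow cells of mice carrying no (WT), 1 (Het) or 2 (Hom) mutant alleles of Polg, which encodes the catalytic subunit of the mitochondrial DNA polymerase; the series text ties the genotypes to mutations building up in mitochondrial DNA, and the labels write the genotypes as Polgwt/wt, Polgwt/mut and Polgmut/mut. All cells were kept in culture and then transduced with a retroviral MSCV vector carrying IRES-YFP alone (Ctrl) or NMyc with IRES-YFP (NMyc), so both vectors carried the fluorescent marker. Affymetrix whole-transcript arrays were run on 3 WT-Ctrl and 3 Het-Ctrl samples and on 2 samples of each other group (Hom-Ctrl and the NMyc-transduced WT, Het and Hom cells), which the labels call biological replicates, and no source says whether a culture came from 1 mouse or several. A retroviral promoter drives NMyc in every transduced cell type, and the age of the mice and the share of transduced cells were not stated in any source used here.

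Nuclear genes are transcribed by distinct enzymes. Pol I makes the precursor of the large ribosomal RNAs in the nucleolus, Pol II makes messenger RNAs, and Pol III makes transfer RNAs, 5S ribosomal RNA and other short RNAs. The enzymes share a set of small subunits and build their large subunits from separate, related genes. Each is brought to its promoters by factors of its own: Ubtf, Rrn3 and the Taf1 proteins for Pol I, and the TFIIIA, TFIIIC and TFIIIB factors (Gtf3a, the Gtf3c genes, and Brf1, Brf2 and Bdp1) for Pol III. MYC proteins bind DNA with MAX at the sequence CACGTG, the E-box, and are known for raising ribosome production and transcription by Pol I and Pol III.

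The promoters of 4 members are shown because their genes lead the results that follow: Polr1b rose most, Rrn3 is the member with most E-boxes, and Polr3g and Polr3gl are alternative Pol III subunits that moved in opposite directions. Each is the RefSeq sequence (build GRCm38.p6) upstream of the start that also lies outside the annotated gene, 5′ to 3′ on the strand of the gene, with CACGTG in capitals. The Polr1b stretch is chr2:129100746-129100969 on the plus strand, that of Rrn3 chr16:13780449-13780698 on the plus strand, that of Polr3g chr13:81711014-81711263 on the minus strand and that of Polr3gl chr3:96594182-96594431 on the minus strand.
Polr1b: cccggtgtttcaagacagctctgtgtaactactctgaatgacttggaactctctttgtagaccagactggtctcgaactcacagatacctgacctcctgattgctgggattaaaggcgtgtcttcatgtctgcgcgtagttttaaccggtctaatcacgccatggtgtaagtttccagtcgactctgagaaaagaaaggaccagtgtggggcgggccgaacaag
Rrn3: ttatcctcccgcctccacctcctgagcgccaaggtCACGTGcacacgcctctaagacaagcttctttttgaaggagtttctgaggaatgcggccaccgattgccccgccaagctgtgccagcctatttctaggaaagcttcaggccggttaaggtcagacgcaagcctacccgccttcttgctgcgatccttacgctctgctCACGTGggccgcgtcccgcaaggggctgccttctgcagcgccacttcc
Polr3g: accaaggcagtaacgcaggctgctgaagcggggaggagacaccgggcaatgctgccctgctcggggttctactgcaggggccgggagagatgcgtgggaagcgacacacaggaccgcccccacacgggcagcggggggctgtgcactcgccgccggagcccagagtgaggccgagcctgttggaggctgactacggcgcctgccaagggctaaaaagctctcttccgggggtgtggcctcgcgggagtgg
Polr3gl: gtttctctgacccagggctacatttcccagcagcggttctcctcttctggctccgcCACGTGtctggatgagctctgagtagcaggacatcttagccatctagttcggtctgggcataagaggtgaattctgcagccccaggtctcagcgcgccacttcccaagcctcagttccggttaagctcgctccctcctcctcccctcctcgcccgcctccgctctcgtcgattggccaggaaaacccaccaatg

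In the full promoter windows, which run from 250 bases before to 50 bases after a start, 33 members had an entry. Polr2k, Polr2d, Polr2g, Polr3a, Polr3d, Brf1 and Brf2 had none. CACGTG, which reads the same on both strands and was the only motif searched, was present in a window of 6 of the 33 (18.2%), against 1453 of 15691 genes on the array with a window (9.3%) and 2349 of all 32851 windows (7.2%). The 6 were Rrn3 (at -215 and -48 from the start), Polr2h (at 24), Polr3c (at -237), Polr3e (at 6), Polr3gl (at -194) and Gtf3c6. In Gtf3c6 a single site lies in overlapping windows, at -56 from one start and at -206 from another. The windows of the 3 Pol I subunit genes did not hold these letters. The median change with NMyc, given below, was 0.55 for the 6 with the motif and 0.78 for those without. CACGTG holds a CpG, a C followed by a G, and the median CpG count was 23 for members and 16 for genes on the array. The part of this in the share of members with CACGTG was not tested.

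The label check came first. Mycn read 12.15 to 12.38 in the 6 NMyc arrays and 7.43 to 7.76 in the Ctrl arrays other than Hom-Ctrl replicate 1, which read 9.77. Some results are also given without this array, as stated where they occur. All other averages and Hom values include it. All values are log2 array signals, and those of different genes come from different probes, so only changes are compared between genes. All 40 members exceeded the median negative control signal in all 14 arrays, while Taf1a and Brf2 exceeded the 95th percentile of those sets in none, and 7 members (Taf1a, Polr2l, Polr3a, Polr3f, Polr3g, Brf2 and Gtf3c4) exceeded it in 0 of 8 Ctrl arrays. The Ctrl signals of these 7 cannot be told apart from that range, so their changes, and the differences from other genes computed with them, are those of the measured signals only. Some others exceeded it in only part of the 8 Ctrl arrays, among them Polr3d (1), Polr1a and Polr2j (2 each) and Polr1b and Polr1e (4 each). The contrast of positive over negative control sets was 3.60 to 4.17 in Ctrl and 4.04 to 4.52 in NMyc arrays. Among markers of maturing blood cells, mean signals moved with the vector too: from 11.06 to 11.92 in Ctrl to 10.41 to 10.67 in NMyc arrays for 8 neutrophil genes, from 9.41 to 10.17 to 8.18 to 8.39 for 6 monocyte and macrophage genes, from 10.62 to 11.26 to 9.65 to 10.05 for 6 mast cell and basophil genes, from 7.77 to 8.33 to 6.80 to 7.0 for 3 eosinophil genes and from 9.22 to 9.97 to 6.79 to 7.19 for 4 megakaryocyte genes. Of these lists 6 of 8 neutrophil, 5 of 6 monocyte and macrophage, 5 of 6 mast cell and basophil, 2 of 3 eosinophil and 4 of 4 megakaryocyte genes fell, while the neutrophil granule genes Elane (0.47) and Mpo (0.51) and the mast cell gene Ms4a2 (0.83) rose. The mean of 7 progenitor genes was 8.72 to 8.88 with Ctrl and 8.05 to 8.49 with NMyc, and that of 4 erythroid genes 7.31 to 7.83 and 8.0 to 8.09. Of these 4 of 7 progenitor genes fell and 1 of 4 erythroid genes, Tfrc (1.83), rose, while Epor (-0.09), Gata1 (0.11) and Klf1 (0.08) were not called. Among all probe sets 15.5% were called lower and 18.2% higher. In no array did 2 of the progenitor, 2 of the erythroid, 1 of the monocyte and macrophage and 1 of the eosinophil genes exceed the 95th percentile of the negative control sets. No measured B cell (3) or T and NK cell (3) marker exceeded the 95th percentile of the negative control sets. In bulk RNA a shift in the mix of cells and a change within cells cannot be told apart, and the part of these shifts in the results below was not tested.

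The first comparison asked what N-Myc does to the 3 transcription systems. Averaged over the 3 genotypes, 34 of the 40 members were higher with NMyc and 1 was lower, at an adjusted p under 0.05 (limma, adjusted over all probe sets). Among all probe sets tested 18.2% were called higher and 15.5% lower. The median change of the 40 was 0.69 on the log2 scale, against -0.022 over all probe sets. In 25 members every NMyc array lay above every Ctrl array, which 10.5% of all probe sets did, and in 1 member, Polr3gl, every NMyc array lay below, as 6.58% did. At least a 2-fold rise was called for 6 members, against 2.78% of all probe sets. The members not called were Taf1b (0.05), Polr2g (0.18), Polr2i (0.11), Polr3k (0.07) and Brf1 (0.08). Across the 40 members the change had a Spearman correlation of -0.12 with the mean signal, a description over genes that share the same arrays.

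**Figure D1:**
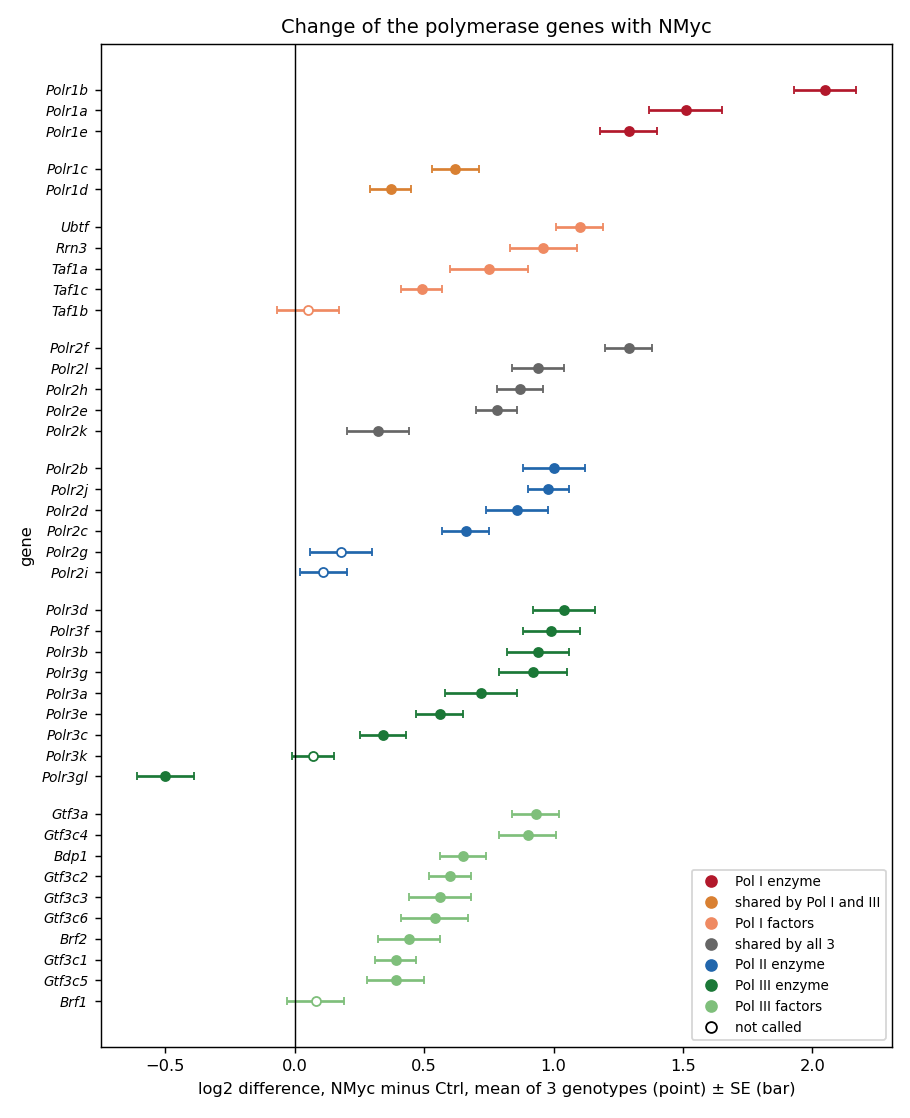
The x axis gives the log2 difference between NMyc and Ctrl averaged over the 3 genotypes (points) with its standard error (bars) for each of the 40 genes on the y axis, coloured by class; open points were not called. Polr1b (2.05), Polr1a (1.51) and Polr1e (1.29) lead the list with Polr2f (1.29), and Polr3gl (-0.50) stands alone to the left of 0.

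The 3 subunits particular to Pol I had a median change of 1.51. Polr1b, the second-largest subunit which with Polr1a forms the active site of Pol I, read 7.45, 7.52 and 7.73 in WT-Ctrl, 7.82, 7.18 and 7.91 in Het-Ctrl, 7.13 and 7.46 in Hom-Ctrl, 9.32 and 9.69 in WT-NMyc, 9.63 and 9.58 in Het-NMyc and 9.45 and 9.61 in Hom-NMyc arrays. Every NMyc array was above every Ctrl array, with a gap of 1.41 between the closest. Polr1b rose by 2.05 (SE 0.12, 4.14-fold, adjusted p = 7.01e-09), which placed it at rank 9 of the 22206 probe sets from the highest rise. Polr1a, the largest subunit, lay between 7.06 and 7.91 (median 7.54) with Ctrl and between 8.91 and 9.24 (median 9.05) with NMyc, without overlap. It rose by 1.51 (SE 0.14, 2.85-fold, adjusted p = 3.55e-07). Polr1e, which belongs to the dimer that helps Pol I start, lay between 7.23 and 8.16 (median 7.61) with Ctrl and between 8.85 and 9.31 (median 8.98) with NMyc, again without overlap, and rose by 1.29 (SE 0.11, 2.44-fold, adjusted p = 1.94e-07). Without Hom-Ctrl replicate 1 the rise of Polr1b was 1.99 and that of Polr1a 1.40.

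The platform names 3 further Pol I subunits by older symbols, so they fall outside the naming rule: Cd3eap, the partner of Polr1e, rose by 1.10 (SE 0.09), Twistnb, a stalk subunit, by 0.75 (SE 0.10) and Znrd1, the zinc ribbon subunit, by 0.50 (SE 0.08). With them all 6 Pol I subunits rose, and their median of 1.19 was below the 1.51 of the 3 named Polr1. The subunits that Pol I shares with Pol III, Polr1c and Polr1d, form the pair on which the large subunits assemble. Polr1c lay between 8.05 and 8.77 (median 8.36) with Ctrl and between 8.94 and 9.06 (median 9.01) with NMyc, and rose by 0.62 (SE 0.09, adjusted p = 7.05e-05). Polr1d lay between 9.44 and 9.77 with Ctrl and between 9.69 and 10.06 with NMyc, with overlap, and rose by 0.37 (SE 0.08, adjusted p = 0.00246). Both changes are smaller in value than those of Polr1a, Polr1b and Polr1e.

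Of the Pol I factors 4 of 5 rose, with a median of 0.75. Ubtf, which coats active ribosomal DNA, lay between 8.23 and 8.77 (median 8.36) with Ctrl and between 9.38 and 9.75 (median 9.46) with NMyc. The groups did not overlap, and the rise was 1.10 (SE 0.09, 2.14-fold, adjusted p = 1.5e-07). Rrn3, which links Pol I to its promoter factors and whose promoter above holds 2 E-boxes, lay between 7.55 and 8.52 (median 8.11) with Ctrl and between 8.78 and 9.40 (median 9.14) with NMyc. It rose by 0.96 (SE 0.13, 1.95-fold, adjusted p = 2.76e-05), also without overlap. The Taf1 genes encode the promoter complex SL1. Among them Taf1a rose by 0.75 (SE 0.15, adjusted p = 0.000622) from 5.02 to 5.84 with Ctrl to 5.73 to 6.76 with NMyc, a low signal with overlap, Taf1c rose by 0.49 (SE 0.08), and Taf1b was at 0.05 (adjusted p = 0.799).

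Among the other genes of Pol I transcription listed, 8 were measured, 4 rose and 1 fell, with a median of 0.26. The shares of all probe sets were 18.2% called higher and 15.5% lower. Mybbp1a, a nucleolar protein, rose by 1.66 (SE 0.10, adjusted p = 1.16e-08), and the remaining risers were the 3 subunits above. Baz2a, a subunit of the complex that silences ribosomal DNA, fell by 0.41 (SE 0.09, adjusted p = 0.00205). Its values were 9.19 to 9.58 with Ctrl and 8.81 to 9.20 with NMyc, which overlap.

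All 5 subunits common to the 3 enzymes rose, with a median of 0.87. Polr2f lay between 8.80 and 9.32 (median 9.10) with Ctrl and between 10.30 and 10.48 (median 10.41) with NMyc, without overlap, and rose by 1.29 (SE 0.09, 2.45-fold, adjusted p = 2.16e-08). Polr2l lay between 6.94 and 7.51 (median 7.20) with Ctrl and between 7.90 and 8.44 (median 8.14) with NMyc and rose by 0.94 (SE 0.10, adjusted p = 2.83e-06). Polr2h lay between 7.68 and 8.22 (median 7.96) with Ctrl and between 8.56 and 8.97 (median 8.81) with NMyc and rose by 0.87 (SE 0.09, adjusted p = 2.43e-06). Polr2f, Polr2l and Polr2h help to assemble and stabilise the core of each enzyme, and in each the NMyc arrays stood clear of the Ctrl arrays. Polr2e rose by 0.78 (SE 0.08, adjusted p = 1.23e-06). Polr2k was at the edge of the call, at 0.32 (SE 0.12, adjusted p = 0.0499), and was not called under 16 of 24 alternative settings (adjusted p up to 0.173).

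Of the subunits particular to Pol II 4 of 6 rose, with a median of 0.76. Polr2b, the counterpart of Polr1b in Pol II, read 9.07, 8.24 and 9.06 in WT-Ctrl, 8.91, 8.89 and 8.79 in Het-Ctrl, 9.35 and 9.67 in Hom-Ctrl, 9.85 and 9.90 in WT-NMyc, 9.86 and 10.08 in Het-NMyc and 10.26 and 10.37 in Hom-NMyc arrays. The NMyc arrays lay above all Ctrl arrays, by 0.18 at the closest. Polr2b rose by 1.00 (SE 0.12, adjusted p = 1.03e-05). Polr2j, of the assembly pair of Pol II, lay between 7.14 and 7.66 (median 7.43) with Ctrl and between 8.22 and 8.57 (median 8.34) with NMyc, and rose by 0.98 (SE 0.08, adjusted p = 2.14e-07). Polr2d, of the stalk, lay between 7.51 and 8.21 (median 7.95) with Ctrl and between 8.67 and 8.85 (median 8.75) with NMyc, and rose by 0.86 (SE 0.12, adjusted p = 2.47e-05). Neither Polr2j nor Polr2d overlapped between the vectors. Polr2c, the partner of Polr2j, rose by 0.66 (SE 0.09, adjusted p = 1.44e-05). Polr2g, the stalk partner of Polr2d, was at 0.18 (SE 0.12, adjusted p = 0.278), and Polr2i, the zinc ribbon subunit, at 0.11 (SE 0.09, adjusted p = 0.374).

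The general factors of Pol II were listed as a comparison. Of 27 measured initiation genes 17 rose and 1 fell (median 0.36), and of 19 elongation genes 10 rose and 3 fell (median 0.35). Among all probe sets 18.2% were called higher and 15.5% lower, so the share of elongation genes that fell is near that of all probe sets. Gtf2h3 (1.06, SE 0.10) and Gtf2h1 (1.01, SE 0.09), core subunits of the promoter-opening factor TFIIH, and Supt16 (1.05, SE 0.10), a histone chaperone that travels with Pol II, rose most. Tbp, the TATA-binding protein that serves all 3 systems, rose by 0.42 (SE 0.08, adjusted p = 0.000586). The falls were Taf4 (-0.25), a TFIID subunit, and the elongation genes Ell (-0.35), Ell2 (-0.42) and Ccnt2 (-0.32), the last a cyclin partner of Cdk9.

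Of the subunits particular to Pol III 7 of 9 rose and 1 fell, with a median of 0.72. Polr3d lay between 6.78 and 7.69 (median 6.97) with Ctrl and between 7.98 and 8.21 (median 8.12) with NMyc, and rose by 1.04 (SE 0.12, 2.05-fold, adjusted p = 3.49e-06). Polr3f lay between 6.59 and 7.42 (median 6.96) with Ctrl and between 7.71 and 8.46 (median 7.87) with NMyc, and rose by 0.99 (SE 0.11, adjusted p = 2.1e-06). Polr3d belongs to the dimer of Pol III that acts in starting and ending a transcript, Polr3f to the trimer that opens the promoter, and in both the vectors did not overlap. Polr3a, the largest subunit, lay between 6.44 and 7.46 (median 7.20) with Ctrl and between 7.69 and 8.03 (median 7.80) with NMyc, and rose by 0.72 (SE 0.14, adjusted p = 0.000571) from Ctrl signals in the range of the negative control sets.

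Polr3b, the counterpart of Polr1b in Pol III, read 8.38, 8.32 and 8.66 in WT-Ctrl, 8.11, 8.20 and 8.28 in Het-Ctrl, 7.15 and 8.02 in Hom-Ctrl, 9.11 and 8.83 in WT-NMyc, 8.93 and 8.93 in Het-NMyc and 9.19 and 9.13 in Hom-NMyc arrays. The value of 7.15 belongs to Hom-Ctrl replicate 1, the array with the high Mycn, and is the lowest of all 14. Polr3b rose by 0.94 (SE 0.12, adjusted p = 1.48e-05), and by 0.80 without that array. Polr3e (0.56) and Polr3c (0.34) rose as well, and Polr3k, the zinc ribbon subunit, was at 0.07 (adjusted p = 0.555).

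**Figure D2:**
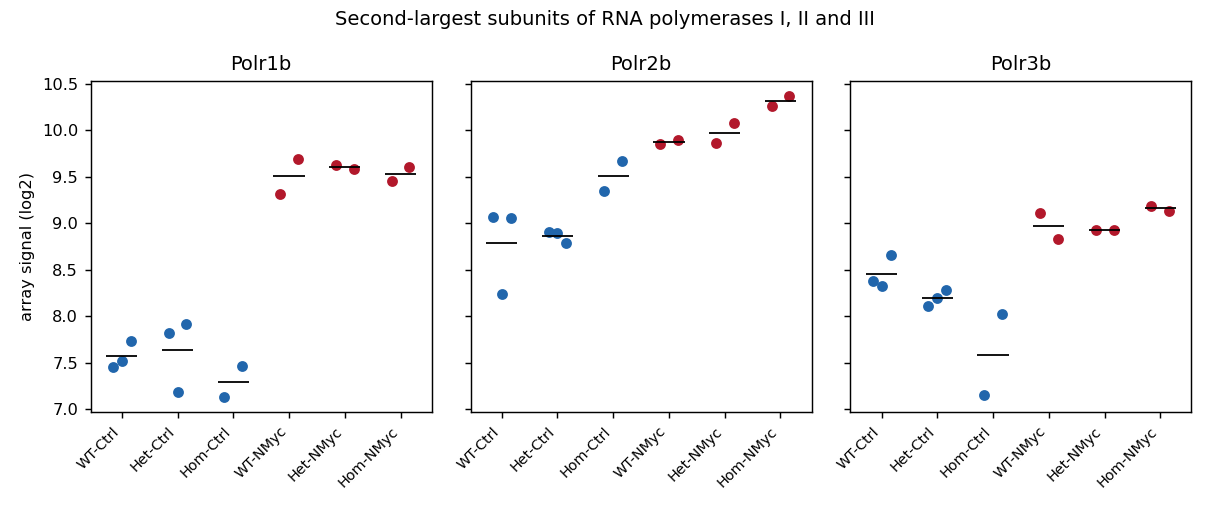
The y axis gives the log2 array signal of the second-largest subunit of each enzyme (Polr1b of Pol I, Polr2b of Pol II, Polr3b of Pol III), with the 6 groups on the x axis, Ctrl arrays in blue, NMyc arrays in red, and group means as lines. The NMyc arrays lie above all Ctrl arrays in the 3 panels, farthest for Polr1b (9.32 to 9.69 against 7.13 to 7.91), and the lowest Polr3b value (7.15) is from Hom-Ctrl.

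Polr3g and Polr3gl encode alternative forms of 1 Pol III subunit; Polr3g is known from stem cells and tumour cells, Polr3gl from most differentiated tissues. Polr3g read 6.45, 6.98 and 6.83 in WT-Ctrl, 7.05, 6.57 and 6.58 in Het-Ctrl, 6.80 and 7.15 in Hom-Ctrl, 7.57 and 7.85 in WT-NMyc, 7.43 and 7.95 in Het-NMyc and 7.60 and 8.04 in Hom-NMyc arrays. It was higher in every NMyc array than in any Ctrl array, and rose by 0.92 (SE 0.13, 1.89-fold, adjusted p = 4.11e-05), also from Ctrl signals in the range of the negative control sets. Polr3gl read 8.86, 8.45 and 8.31 in WT-Ctrl, 8.62, 8.63 and 8.41 in Het-Ctrl, 8.55 and 8.23 in Hom-Ctrl, 7.96 and 8.17 in WT-NMyc, 8.16 and 7.87 in Het-NMyc and 7.88 and 7.90 in Hom-NMyc arrays. It was lower in every NMyc array than in any Ctrl array, with a gap of 0.06 at the closest, and fell by 0.50 (SE 0.11, 1.42-fold, adjusted p = 0.00129). The changes of Polr3gl were -0.48 (WT), -0.54 (Het) and -0.50 (Hom), and those of Polr3g 0.96, 0.96 and 0.84. The within-array difference between their signals moved by 1.42 between the vectors (95% interval 0.96 to 1.89, exact permutation test within genotypes, two-sided, p = 0.00167, the smallest it allows, and 0.005 adjusted over 12 pairs), with the same limit on Polr3g.

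**Figure D3:**
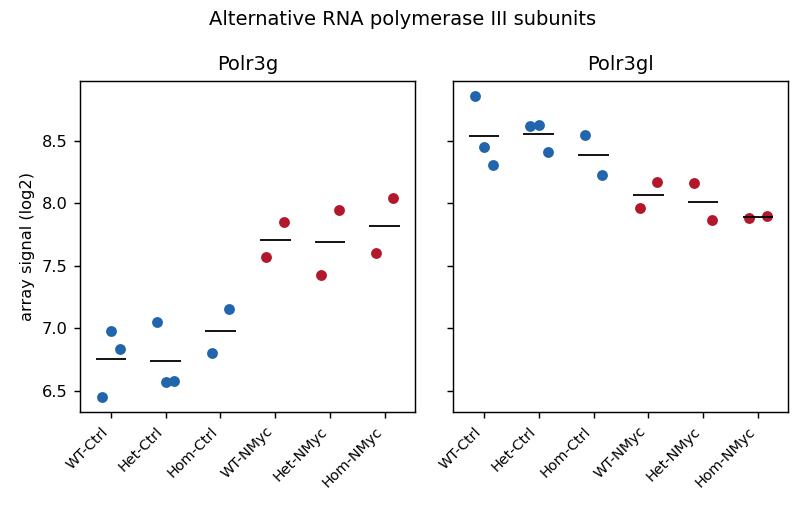
The y axis gives the log2 array signal of Polr3g (left) and Polr3gl (right), with the 6 groups on the x axis, Ctrl arrays in blue, NMyc arrays in red, and group means as lines. Polr3g lies between 6.45 and 7.15 with Ctrl and 7.43 and 8.04 with NMyc, while Polr3gl lies between 8.23 and 8.86 with Ctrl and 7.87 and 8.17 with NMyc.

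Of the Pol III factors 9 of 10 rose, with a median of 0.55. Gtf3a, or TFIIIA, which serves the 5S ribosomal RNA genes alone, lay between 9.35 and 9.88 (median 9.74) with Ctrl and between 10.46 and 10.80 (median 10.69) with NMyc. It rose by 0.93 (SE 0.09, 1.9-fold, adjusted p = 6.47e-07). Gtf3c4, a TFIIIC subunit, lay between 6.20 and 6.70 (median 6.61) with Ctrl and between 7.25 and 7.85 (median 7.39) with NMyc, and rose by 0.90 (SE 0.11, adjusted p = 1.2e-05). Bdp1, a TFIIIB subunit needed at all Pol III promoters, lay between 7.98 and 8.42 (median 8.21) with Ctrl and between 8.73 and 8.99 (median 8.87) with NMyc, and rose by 0.65 (SE 0.09, adjusted p = 2.16e-05). None of Gtf3a, Gtf3c4 and Bdp1 overlapped between the vectors. The other TFIIIC subunits rose by 0.39 (Gtf3c1 and Gtf3c5) to 0.60 (Gtf3c2). Gtf3c5 was not called under 3 of 24 alternative settings: with the code run, given below, as a block, with runs 2 and 3 alone and without Hom-Ctrl replicate 1 (adjusted p of 0.0712, 0.0847 and 0.0505). Brf2, the TFIIIB subunit of U6-type genes, rose by 0.44 (SE 0.12, adjusted p = 0.0119) at a low signal, while Brf1, its counterpart at transfer RNA and 5S genes, was at 0.08 (SE 0.11, adjusted p = 0.642).

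Among 9 other measured genes of Pol III transcription 4 rose and 1 fell, with a median of 0.19. The shares of all probe sets were 18.2% called higher and 15.5% lower. Snapc2 (0.74, SE 0.13) and Snapc4 (0.56, SE 0.14), subunits of the complex that binds small nuclear RNA promoters, Ssb (0.59, SE 0.08), which binds the ends of new Pol III transcripts, and Trim27 (0.73, SE 0.11) rose. Maf1, the repressor of Pol III, lay between 9.32 and 9.65 with Ctrl and between 9.02 and 9.43 with NMyc, with overlap, and fell by 0.29 (SE 0.09, adjusted p = 0.0191).

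**Figure D4:**
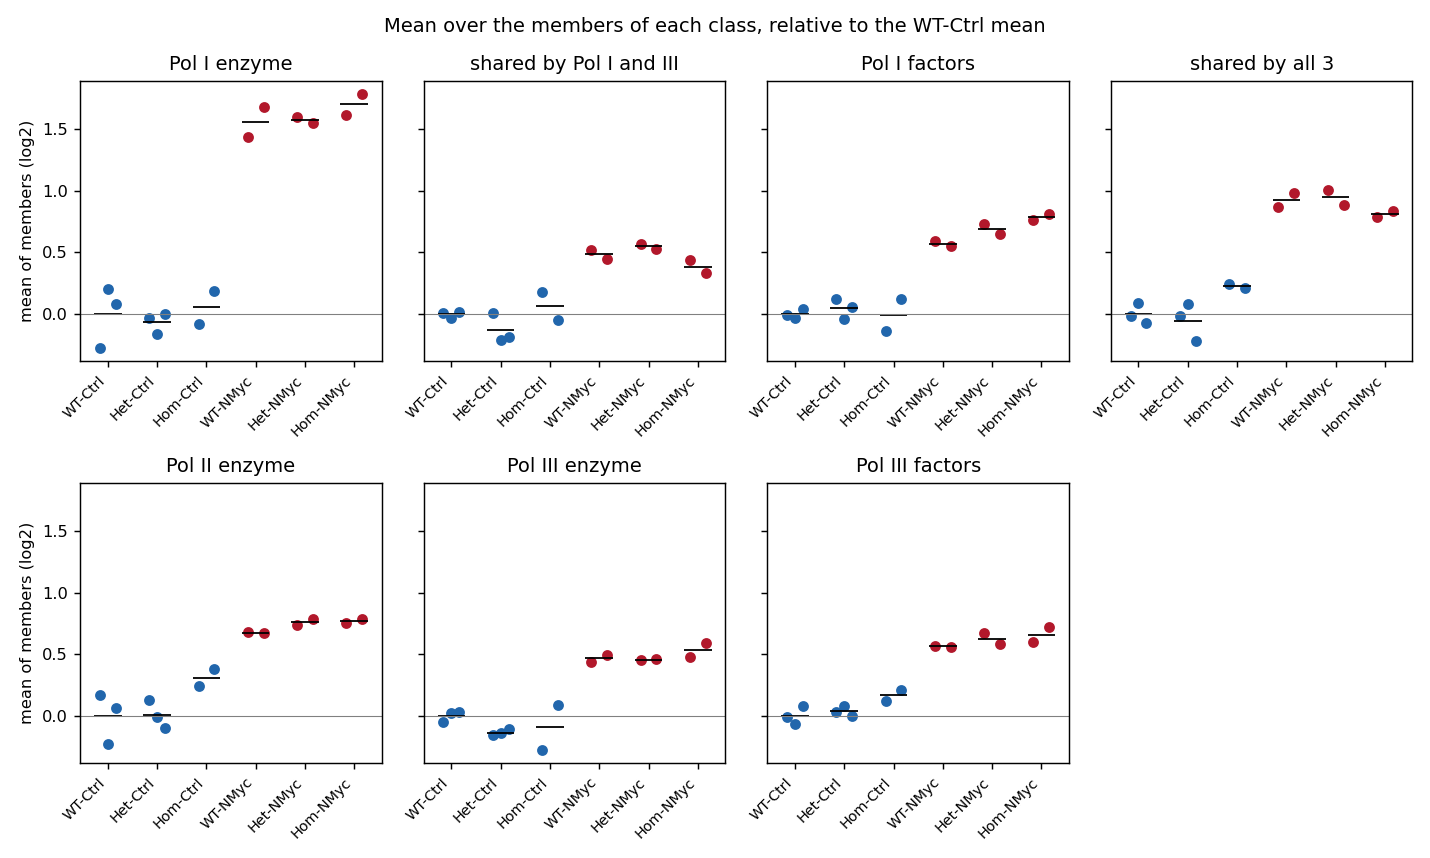
The y axis gives the mean over the members of a class of the log2 signal minus the mean of the WT-Ctrl arrays, 1 point per array, with the 6 groups on the x axis, Ctrl arrays in blue, NMyc arrays in red, and group means as lines. The 3 Pol I subunits with Polr1 symbols lie at -0.28 to 0.20 with Ctrl and 1.44 to 1.79 with NMyc. The values are -0.23 to 0.38 and 0.67 to 0.79 for Pol II subunits and -0.28 to 0.09 and 0.44 to 0.59 for Pol III subunits. Cd3eap, Twistnb and Znrd1, Pol I subunits with smaller rises, are not included.

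The 3 enzymes were then compared position by position, since Pol I, II and III place related subunits in the same parts of the enzyme. For 12 pairs the within-array difference between the subunits was formed, and its shift between the vectors tested with an exact permutation test within genotypes (two-sided, 600 arrangements, adjusted over the 12). The difference is between the signals of 2 probe sets, and the pairs that share a gene are not independent. At the active site Polr1b rose by 1.05 more than Polr2b (95% interval 0.60 to 1.43, exact test, adjusted p = 0.00571) and by 1.11 more than Polr3b (0.74 to 1.51, exact test, adjusted p = 0.005). Polr1b exceeded the 95th percentile of the negative control sets in 4 of 8 Ctrl arrays, Polr2b in 8 and Polr3b in 7. Polr1a rose by 0.79 more than Polr3a (0.47 to 1.14, exact test, adjusted p = 0.00571) as measured, but Polr3a exceeded the 95th percentile of the negative control sets in 0 of 8 Ctrl arrays and Polr1a in 2 of 8. The changes of Polr2b and Polr3b differed by 0.06 (-0.43 to 0.64, exact test, adjusted p = 0.822), an interval that leaves room for 0.64 in favour of Pol II.

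At the assembly pair, no larger change of the subunits of Pol I and III was seen. Polr1c differed from Polr2c by -0.04 (-0.25 to 0.17, exact test, adjusted p = 0.80), and Polr1d rose by 0.61 less than Polr2j (interval of the difference -0.81 to -0.41, exact test, adjusted p = 0.005). At the zinc ribbon, Znrd1 of Pol I rose by 0.39 more than Polr2i (0.16 to 0.63, exact test, adjusted p = 0.015) and by 0.44 more than Polr3k (0.20 to 0.62, exact test, adjusted p = 0.00571), while Polr2i and Polr3k differed by 0.04 (-0.21 to 0.28, exact test, adjusted p = 0.80). In the stalk, Twistnb of Pol I was 0.57 above Polr2g in its change, short of the threshold (0.05 to 1.01, exact test, adjusted p = 0.0511). Polr2d of Pol II rose by 0.80 more than Crcp of Pol III (0.65 to 0.96, exact test, adjusted p = 0.005), which was itself at 0.06 (SE 0.10). In 5 of the 6 pairs that set a Pol I gene, shared subunits left out, against Pol II or III, the difference passed the threshold with the larger rise in Pol I, and Twistnb against Polr2g was the exception. With code runs 2 and 3 alone, given below, Znrd1 minus Polr2i was 0.29 and missed the threshold (exact test, adjusted p = 0.0833). Twistnb minus Polr2g passed it without Hom-Ctrl replicate 1 (0.45), without Hom-Ctrl replicate 2 (0.69), without WT-Ctrl replicate 3 (0.62) and without Het-Ctrl replicate 3 (0.62), with adjusted p of 0.0292 to 0.04 in the exact test.

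**Figure D5:**
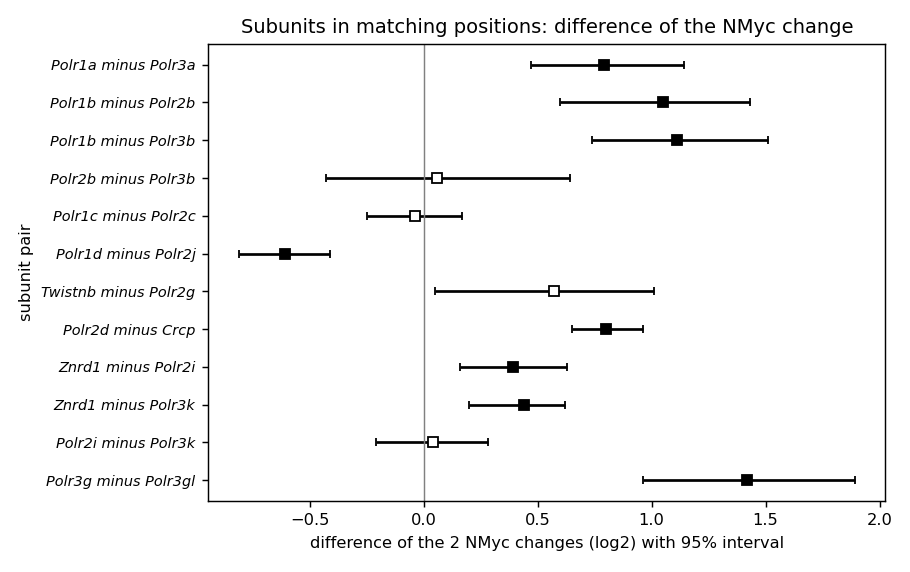
The x axis gives the NMyc change of the gene named first minus that of the gene named second on the y axis (log2, squares) with 95% intervals from the exact permutation test (bars); filled squares had an adjusted p under 0.05. Polr3g against Polr3gl (1.42), Polr1b against Polr3b (1.11) and Polr1b against Polr2b (1.05) lie farthest to the right, and Polr1d against Polr2j (-0.61) lies to the left of 0.

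Within the genotypes, 25 members were called higher and 0 lower in WT (10.1% and 9.05% of all probe sets), 30 and 1 in Het (11.1% and 8%) and 24 and 0 in Hom (10.7% and 7.01%). At an unadjusted p under 0.05 limma had 32 members past the threshold in WT, 36 in Het and 29 in Hom, in either direction. Of all 22206 probe sets, 6463, 6408 and 6412 were past it. A rise was called in all 3 genotypes for 20 members, against 6.57% of all probe sets. A positive change in each was seen in 34 members, for which no share of all probe sets was computed. Polr1b rose by 1.94 (WT), 1.97 (Het) and 2.24 (Hom), Polr1a by 1.48, 1.45 and 1.60, and Polr1e by 1.26, 1.5 and 1.10. The medians of the 6 Pol II subunits were 0.70, 0.94 and 0.58, and those of the 9 Pol III subunits 0.47, 0.73 and 0.76. Polr3gl was called lower in Het (adjusted p = 0.0438) and missed the threshold in WT (0.0785) and Hom (0.0985). The counts changed when single arrays were left out in all 3 genotypes. In WT, Het and Hom fewer members were called higher without either NMyc array of the genotype, and in Hom also without Hom-Ctrl replicate 1. Such fits leave 1 array in a group, so the lower counts cannot be told apart from the effect of the smaller group. They enter ranges given further below, and nothing is concluded from them.

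Whether the NMyc effect differed between genotypes was tested directly. No member passed for Het minus WT (0 of 40, against 0% of all probe sets) or for Hom minus WT (0 of 40, against 0.0811%). At an unadjusted p under 0.05 in limma, Het minus WT had 1 member and 730 of all 22206 probe sets. Hom minus WT had 3 members and 1896 probe sets. The smallest p belonged to Polr3b, whose change was 0.51 in WT, 0.73 in Het and 1.57 in Hom, a difference of 1.06 between Hom and WT (SE 0.30, adjusted p = 0.255). Without Hom-Ctrl replicate 1 this difference was 0.62 (limma, adjusted p = 0.532), and without Hom-Ctrl replicate 2 it was 1.49 (adjusted p = 0.0606).

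The other comparisons asked what the Polg genotype did within a vector. With Ctrl, 3 of 40 members (7.5%) were called in Hom against WT, and 3.91% of all probe sets. In Hom against Het 1 of 40 (2.5%) was called, and 2.4% of all probe sets. At an unadjusted p under 0.05 in limma each of these comparisons had 11 members, against 3774 and 3310 of all 22206 probe sets. Whether the members differ from all probe sets in these shares was not tested. In Het against WT 0 members were called (0%), with 0 members and 935 of all 22206 probe sets at an unadjusted p under 0.05 in limma. With NMyc 0 members were called in Het against WT (0%), in Hom against WT (0%) and in Hom against Het (0%). At an unadjusted p under 0.05 in limma these comparisons had 0, 3 and 2 members, against 576, 1873 and 1093 of all probe sets.

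The 3 genes were Polr3b, Gtf3c3 and Polr2c. Polr3b, with the Ctrl values above, was 0.87 lower in Hom-Ctrl than in WT-Ctrl (log2 difference -0.87, SE 0.20, adjusted p = 0.028). Without Hom-Ctrl replicate 1 the difference was -0.44 (adjusted p = 0.266). Gtf3c3, a TFIIIC subunit, read 7.12, 6.70 and 6.59 in WT-Ctrl, 7.21, 7.13 and 6.54 in Het-Ctrl and 7.58 and 7.66 in Hom-Ctrl arrays. It was 0.82 higher in Hom than in WT (SE 0.19, adjusted p = 0.0291), with both Hom arrays above the others. Gtf3c3 exceeded the 95th percentile of the negative control sets in 2 of 8 Ctrl arrays, both of them Hom-Ctrl. Its WT-Ctrl and Het-Ctrl signals cannot be told apart from that range, so the difference is that of the measured signals only. Without Hom-Ctrl replicate 1 the difference was 0.86 (adjusted p = 0.0907), and the call was lost under 7 of 25 alternative settings, with adjusted p up to 0.191 (without Hom-Ctrl replicate 2). In NMyc arrays it read 7.52 and 7.56 in WT, 7.64 and 7.69 in Het and 7.84 and 7.89 in Hom, so the Hom-Ctrl arrays reached the level of the NMyc arrays.

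Polr2c read 9.07, 9.0 and 9.01 in WT-Ctrl, 9.09, 9.06 and 8.71 in Het-Ctrl and 9.51 and 9.67 in Hom-Ctrl arrays, so that both Hom arrays were above the others. It was 0.56 higher in Hom than in WT (SE 0.14, adjusted p = 0.0398) and 0.64 higher than in Het (SE 0.14, adjusted p = 0.0302). In NMyc arrays it read 9.66 and 9.69 in WT, 9.85 and 9.89 in Het and 9.96 and 10.04 in Hom. Without Hom-Ctrl replicate 1 the differences were 0.64 (Hom against WT, adjusted p = 0.0798) and 0.71 (Hom against Het, adjusted p = 0.063). The call for Hom against WT was lost under 17 of 25 alternative settings, with adjusted p up to 0.255, and that for Hom against Het under 7 of 25, with adjusted p up to 0.238.

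By the codes in their labels the samples fall into 3 runs, of which run 1 holds Ctrl arrays alone; the labels do not call them batches. With the run as a block 33 members were higher and 1 lower, and the median of the 3 Pol I subunits was 1.30. Within run 2 Polr1b was higher with NMyc by 1.80 (WT), 2.45 (Het) and 1.99 (Hom). Within run 3 it was 1.96 higher in WT and 1.67 in Het.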

How the data were processed

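RNA was measured on 14 arrays. The authors deposited log2 values for each probe set, and the submitters' processing notes name Affymetrix Expression Console. How it summarised and normalized the signals is not given in the sources used here, and the values' range (2.24 to 13.47) shows a log2 scale. No further scaling was applied. Of 28846 probe sets, 6640 control sets were left out by their IDs, which left 22206. Symbols came from the platform annotation, and promoter sequences from RefSeq. A model of 6 group means was fitted with limma 3.58.1 in R 4.3.3 (lmFit, eBayes, 8 residual and 7.3 prior degrees of freedom). P-values were adjusted by Benjamini-Hochberg over all 22206, with a call at an adjusted p under 0.05. P-values rest on the spread between the samples of a group, and the number of arrays limits the precision.

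The members, lists and tests were chosen with earlier results of these data known. Values were given for up to 3 members per class with the largest change, the large subunits, Polr3g and Polr3gl, members called against their class and members called between genotypes. Positions shared by the enzymes were compared with exact permutation tests. The fit was tested on simulated data. Alternatives were blocks for replicate number and code run, other normalizations, filters and weights, single arrays left out, and the probe set with the lowest mean. For the members the last of these cannot differ from the main fit, since each has a single set, yet it is counted among the alternative settings. Replicate numbers pair WT-Ctrl with Het-Ctrl arrays, whose deviations correlated at 0.24, 0.27 and 0.25. Other pairs of groups shared only 2 numbers.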

Additional observations from a re-analysis of the deposited data

Results flagged for a closer look

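Polr3k, the zinc ribbon subunit of Pol III, was called in no genotype, but its arrays were ordered by vector in each, the opposite way in Hom. Every NMyc array lay above every Ctrl array in WT (8.55 and 8.59 against 8.49 to 8.52) and in Het (8.67 and 8.55 against 8.30 to 8.33), and below in Hom (8.19 and 8.26 against 8.26 and 8.48, before rounding). Such order was common among the members: within WT, Het and Hom the vectors did not overlap in 35, 36 and 36 of the 40. The share over all probe sets was not computed, so how often groups of this size show such order is not known. The NMyc effect on Polr3k in Hom minus that in WT was -0.21, which limma did not call (adjusted p = 0.821). The effect in Hom minus that in Het was -0.44, and this difference was not tested.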

How the results depend on the processing

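The averaged rise was kept throughout: 32 to 34 members were higher and 1 lower under the 24 alternative settings, and of the 35 calls all but Polr2k and Gtf3c5 held under every setting that could be fitted. With single arrays left out, the count of members higher ran from 19 to 31 in Het and from 9 to 24 in Hom, and it was 12 in Hom with code runs 2 and 3 alone. The number called in Hom against WT with Ctrl was 1 with the replicate number as a block, 7 with dim probe sets left out, 0 with only AFFX sets left out, 7 with an intensity trend, 0 with array weights, 0 with only the groups of the comparison and 0 to 4 with single arrays left out. For Hom against Het it was 0 with the replicate block, 3 with dim sets left out, 0 with only AFFX sets left out, 0 with runs 2 and 3 alone, 0 with only its own groups and 0 to 2 with single arrays left out. The replicate block changed no other count by more than 1.5 times. The median of the 3 Pol I subunits with Polr1 symbols was 1.30 with the code run as a block and 1.30 with runs 2 and 3 alone. That of the Pol III subunits was 0.56 and 0.54, and that of the Pol I factors 0.64 to 0.86 with single arrays left out. Of the pairs, Polr1c minus Polr2c turned to 0.03 with runs 2 and 3 alone and ran from -0.12 to 0.05 with single arrays left out, Polr2b minus Polr3b from -0.03 to 0.15 and Polr2i minus Polr3k from -0.02 to 0.11. The cause of these shifts was not tested. Groups of 2 arrays limit the comparisons between genotypes most. Leaving out an array of such a group leaves 1 array in it, and so does leaving out code run 1 for Hom-Ctrl. The counts of such fits are part of those above, and no conclusion is drawn from them.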
